A study of Homo sapiens with 12 samples.

Results

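Stand-alone lncRNA promoters were defined here as the transcription start sites (TSSs) of genes annotated as lncRNA in GENCODE release 44 (hg38) that lie more than 5 kb from the TSS of every protein-coding gene. Of 18866 lncRNA genes, 14548 met this rule, at a median distance of 65.6 kb from the nearest protein-coding TSS, and 4318 did not. The regions described are those of the 6 deposited lists that overlapped the 2-kb window centred on one of these TSSs, which were 7887 of 158028 regions. A total of 3067 of the 14548 TSSs had at least 1 region of either mark, and the remaining 11481 (78.9%) had none. These counts rest on 1 TSS per gene. When every annotated transcript start of both kinds of gene was held to the 5-kb rule, 12334 lncRNA genes met it.

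The lists come from ChIP-seq of the histone variant H2A.Z and of its acetylated form (H2A.Zac) in K562, a human leukemia line with erythroid and megakaryocytic features. Both groups were K562 cells of 1 EP400-dTAG clone, in which the endogenous EP400 carries a degradation tag, complemented from the AAVS1 locus with either WT EP400 or ΔTRRAP EP400, a form that lacks the part that binds TRRAP. Each complemented line was 1 clone, so that the clone and the form of EP400 cannot be told apart. Both lines were treated with dTAGV-1 at 500 nM for 24 h to degrade the endogenous protein, and 2 biological replicates each of input, H2A.Z and H2A.Zac gave 12 libraries. The comparison asks where H2A.Z and H2A.Zac differ between ΔTRRAP and WT. A region is called lost when it was higher in WT and gained when it was higher in ΔTRRAP, at a log10 likelihood ratio of at least 3 between the merged replicates, and unchanged below 3. A TSS is called gained or lost for a mark when its window held regions of that class and none of the opposite class. Unchanged regions could lie beside them. The replicates were merged before these calls, so that no value per replicate exists in the lists, no test across the lines was possible, and the depth behind a region is unknown here. All intervals below are 95% intervals that cover counting error only, and they treat regions as independent although neighboring regions can be parts of the same peak.

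H2A.Z replaces H2A in the nucleosomes that flank active and poised promoters and in many enhancers, and its acetylation is a mark of active regulatory elements. EP400 is the ATPase that exchanges H2A for H2A.Z in the TIP60 complex, TIP60 is its acetyltransferase, and TRRAP is the large scaffold that is contacted by transcription activators. lncRNA genes are transcribed by RNA polymerase II, and their promoters range from CpG islands like those of housekeeping genes to CpG-poor elements that resemble enhancers.

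The promoters below, 250 bases before to 50 bases from the TSS on, show that range. They were taken from the hg38 sequence and are written 5′ to 3′ on the strand of the gene, with each CpG dinucleotide in capitals. LINC00989 (chr4:79491552-79491851, + strand) and ENSG00000285354 (chr2:16302241-16302540, − strand) were among the strongest losses of both marks, and MIR223HG (chrX:66015164-66015463, + strand), MIR17HG (chr13:91347436-91347735, + strand) and MALAT1 (chr11:65497390-65497689, + strand) are well-known lncRNA genes with a gained region.
LINC00989: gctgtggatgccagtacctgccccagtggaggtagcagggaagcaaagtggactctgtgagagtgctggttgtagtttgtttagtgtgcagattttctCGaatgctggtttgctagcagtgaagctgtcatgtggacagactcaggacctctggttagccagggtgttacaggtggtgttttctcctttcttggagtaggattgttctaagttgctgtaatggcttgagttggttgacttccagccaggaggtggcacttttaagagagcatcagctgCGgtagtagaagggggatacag
ENSG00000285354: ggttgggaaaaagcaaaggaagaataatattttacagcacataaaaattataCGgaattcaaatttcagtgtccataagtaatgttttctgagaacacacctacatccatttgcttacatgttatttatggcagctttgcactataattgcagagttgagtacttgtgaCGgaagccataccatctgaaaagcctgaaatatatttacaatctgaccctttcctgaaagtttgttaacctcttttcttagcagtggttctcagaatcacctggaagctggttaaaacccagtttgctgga
MIR223HG: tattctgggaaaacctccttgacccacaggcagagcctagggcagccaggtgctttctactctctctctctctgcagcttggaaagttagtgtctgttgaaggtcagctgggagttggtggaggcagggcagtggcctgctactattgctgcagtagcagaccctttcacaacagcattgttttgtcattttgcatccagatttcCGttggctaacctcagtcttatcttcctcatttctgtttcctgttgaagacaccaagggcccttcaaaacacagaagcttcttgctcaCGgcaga
MIR17HG: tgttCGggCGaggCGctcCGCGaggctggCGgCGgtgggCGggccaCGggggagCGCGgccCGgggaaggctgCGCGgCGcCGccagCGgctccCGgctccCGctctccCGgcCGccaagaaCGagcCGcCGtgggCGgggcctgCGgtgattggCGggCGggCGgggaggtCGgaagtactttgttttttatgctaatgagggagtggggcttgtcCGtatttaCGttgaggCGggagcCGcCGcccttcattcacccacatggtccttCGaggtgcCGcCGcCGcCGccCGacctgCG
MALAT1: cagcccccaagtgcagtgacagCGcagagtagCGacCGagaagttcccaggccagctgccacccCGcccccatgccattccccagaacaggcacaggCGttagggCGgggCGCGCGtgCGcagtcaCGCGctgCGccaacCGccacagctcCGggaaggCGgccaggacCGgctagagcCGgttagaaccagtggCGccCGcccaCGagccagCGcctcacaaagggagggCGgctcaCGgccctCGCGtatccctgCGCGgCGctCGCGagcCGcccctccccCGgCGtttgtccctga
The windows of LINC00989, ENSG00000285354 and MIR223HG held 2 CpG dinucleotides each, MALAT1 held 34 and MIR17HG held 42. Over all 14548 stand-alone lncRNA promoters the median was 4 CpG dinucleotides in 300 bases, against 18 at the 20046 protein-coding TSSs. The median was 11 where H2A.Zac was gained, 8 where it was lost and 3 where no H2A.Zac region was listed.

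H2A.Z regions at stand-alone lncRNA promoters were lost and gained about equally often, and H2A.Zac regions were gained more often than lost. Of 3165 H2A.Z regions, 461 were lost (14.6%, 13.4 to 15.8), 475 were gained (15.01%, 13.8 to 16.3) and 2229 were unchanged (70.4%, 68.8 to 72.0). Over all H2A.Z regions of the series the lost share was 19.8% and the gained share was 14.1%. Of 4722 H2A.Zac regions, 1020 were lost (21.6%, 20.5 to 22.8), 1316 were gained (27.9%, 26.6 to 29.2) and 2386 were unchanged (50.5%, 49.1 to 52.0). Over all H2A.Zac regions the lost share was 25.9% and the gained share was 26.3%. The lost share at these promoters was thus under the background for both marks, and the gained share was over it for H2A.Zac, while for H2A.Z its interval included the background. Among changed regions, 50.7% of H2A.Z (47.5 to 53.9) and 56.3% of H2A.Zac (54.3 to 58.3) were gained. Leaving out 1 chromosome at a time moved these shares between 50% and 52.5% and between 55.9% and 57.2%. The balance depended on the setting. With ratios of at least 5, 45.3% of changed H2A.Z regions were gained (41.3 to 49.4), and with regions of at least 500 bp 43.6% (39.1 to 48.2). With ratios of at least 10, 46.5% of changed H2A.Zac regions were gained (42.8 to 50.1).

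**Figure D1:**
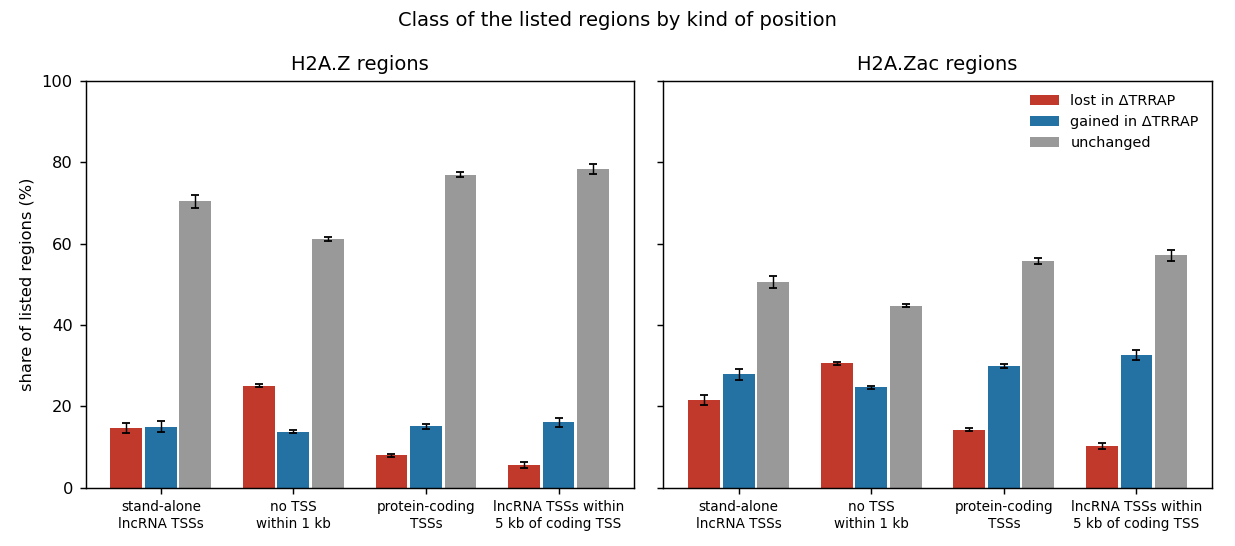
Share of listed H2A.Z (left) and H2A.Zac (right) regions that were lost, gained or unchanged in ΔTRRAP (y axis, %), at 4 kinds of position, with bars from 0 and Wilson 95% intervals. The lost bars at stand-alone lncRNA TSSs (14.6% and 21.6%) lie between those at protein-coding TSSs (7.98% and 14.3%) and those of regions with no TSS within 1 kb (25.1% and 30.6%).

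Compared with protein-coding promoters, more regions at stand-alone lncRNA promoters were lost. The lost share was 6.59 points higher at stand-alone lncRNA promoters for H2A.Z and 7.30 points higher for H2A.Zac, where 14.6% against 7.98% and 21.6% against 14.3% of regions were lost. The gained share differed by -0.05 points for H2A.Z (-1.37 to 1.34, Newcombe interval) and by -2.07 points for H2A.Zac (-3.46 to -0.66). Leaving out 1 chromosome at a time moved the H2A.Z difference between -0.68 and 0.31 points, and both gained-share differences changed sign under other settings. When changed regions were counted only from a likelihood ratio of 10 on, the H2A.Zac difference was 4.82 points in the gained share (3.71 to 6.01) and 5.84 points in the lost share (4.66 to 7.11), and the H2A.Z difference in the lost share was 1.48 points. The gained share of changed regions was 65.4% for H2A.Z and 67.7% for H2A.Zac at protein-coding TSSs, so that lncRNA promoters differed by -14.6 points (-18.1 to -11.1) and -11.3 points (-13.5 to -9.14). The lncRNA share was the lower of the pair on 21 of 23 chromosomes (1 to 22 and X) for H2A.Z and on 22 of 23 for H2A.Zac, where chromosome 20 was the exception with 37.9% gained against 34.5%. The unchanged share differed from that at protein-coding TSSs by -6.53 points for H2A.Z and -5.22 points for H2A.Zac.

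The lncRNA promoters also differed from regions away from any TSS and from the lncRNA promoters that lie near protein-coding genes. Among 103675 regions with no annotated TSS within 1 kb, the gained share of changed regions was 35.4% for H2A.Z and 44.6% for H2A.Zac, and stand-alone lncRNA promoters were 15.4 and 11.7 points higher. At the 4318 lncRNA TSSs within 5 kb of a protein-coding TSS, the gained shares were 74.4% and 76.2%, from which stand-alone promoters differed by -23.6 and -19.8 points. Over all changed regions, stand-alone lncRNA promoters thus lay between distal regions and protein-coding promoters in direction, for both marks. This order was not seen for H2A.Zac among regions with a ratio of at least 20, given next, where the intervals of the sets overlapped.

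The strength of the call bore on both comparisons. Among H2A.Zac regions with a log10 likelihood ratio of 3 to 5, 301 of 472 at lncRNA promoters were gained (63.8%) against 75.5% at protein-coding TSSs, a difference of -11.7 points (-16.4 to -7.18). At 5 to 10, 681 of 1145 were gained (59.5%) against 70.4%, a difference of -10.95 points (-14.0 to -7.91). At 10 and over, 334 of 719 were gained (46.5%) against 47.5%, a difference of -1.09 points (-5.34 to 3.19). The strongest H2A.Zac changes were therefore lost more often than gained in both sets, and the difference between the sets was not detectable among them. For H2A.Z the gained share fell from 59.8% to 46.3% and 39.3% over the same classes, and it differed from that at protein-coding TSSs by -11.5, -14.8 and -13.6 points, with only 84 lncRNA regions in the top class. Against regions with no TSS within 1 kb, lncRNA promoters at 10 and over were 7.05 points higher for H2A.Zac (3.34 to 10.8) and differed by 1.57 points for H2A.Z (-8.42 to 12.5). At 20 and over, 71 of 190 changed H2A.Zac regions at lncRNA promoters were gained (37.4%, 30.8 to 44.4), against 39.9% at protein-coding TSSs (35.0 to 45.02) and 42.3% away from any TSS (40.8 to 43.9). For H2A.Z in that class, 4 of 6 changed regions were gained at lncRNA promoters, 8 of 11 at protein-coding TSSs and 87 of 157 away from any TSS. The likelihood ratio is not a fold change, since read depth and the length of a region enter it too.

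**Figure D2:**
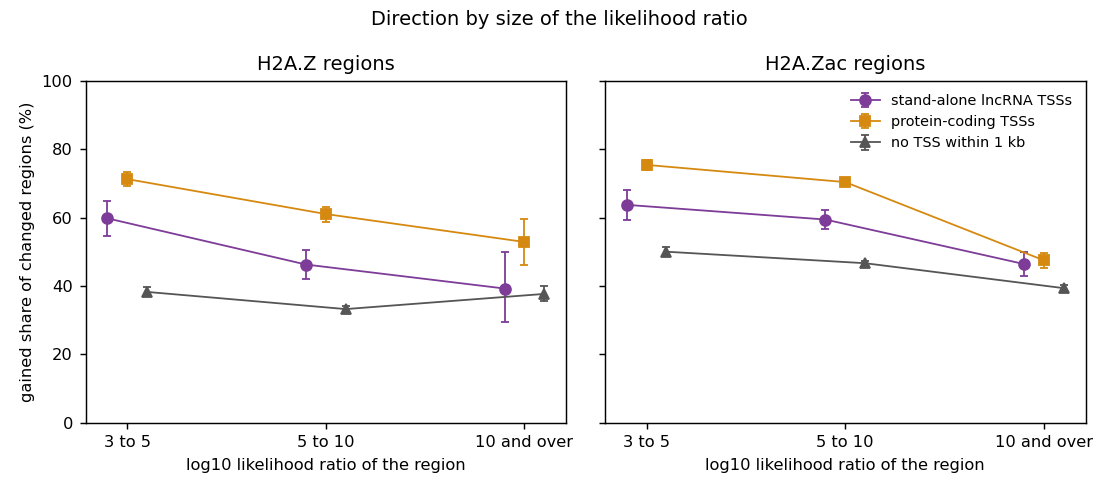
Gained share of changed regions (y axis, %) by log10 likelihood ratio of the region (x axis) for H2A.Z (left) and H2A.Zac (right), at stand-alone lncRNA TSSs (circles), protein-coding TSSs (squares) and regions with no TSS within 1 kb (triangles), with Wilson 95% intervals. For H2A.Zac the circles and squares meet at 46.5% and 47.5% in the class of 10 and over.

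Far fewer lncRNA than protein-coding TSSs carried either mark. An H2A.Z region was listed at 2362 stand-alone lncRNA TSSs (16.2%, 15.6 to 16.8) and an H2A.Zac region at 2828 (19.4%, 18.8 to 20.1), against 60.03% and 62.2% of protein-coding TSSs. The differences were -43.8 and -42.8 points, and -26.4 and -25.7 points when every annotated transcript start was taken in place of 1 TSS per gene. Both marks were listed at 2123 TSSs (14.6%). H2A.Zac without any H2A.Z region in the window was found at 705 of the 2828 lncRNA TSSs (24.9%) against 7.80% at protein-coding TSSs, a difference of 17.1 points (15.5 to 18.8). This combination says only that no H2A.Z region passed the authors' filters there, not that H2A.Z was absent.

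Where both marks changed, they changed together. Of 645 lncRNA TSSs at which each mark had moved in 1 direction, 623 (96.6%) had both marks lost or both gained, and the share at protein-coding TSSs was 94.99% (difference 1.60 points, -0.26 to 3.03). Of 1144 TSSs with H2A.Zac gained, H2A.Z was gained at 324 (28.3%), unchanged at 524 (45.8%) and not listed at 280 (24.5%). Of 836 TSSs with H2A.Zac lost, H2A.Z was lost at 299 (35.8%), unchanged at 276 (33.01%) and not listed at 252 (30.1%). A further 92 TSSs had lost and gained H2A.Zac regions in the same window, and 756 had unchanged H2A.Zac alone.

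Coverage by listed regions was highest near the annotated TSSs, although many regions did not cover the TSS itself. At lncRNA TSSs, 30.9% of lost, 28.7% of gained and 51.4% of unchanged H2A.Z regions lay over the TSS. For H2A.Zac these shares were 35.8%, 39.8% and 48.9%. Unchanged H2A.Z regions covered 1.38% of stand-alone lncRNA TSSs at 5 kb upstream, 8.91% at the TSS and 10.04% at 150 bp downstream, with a dip just upstream of the TSS. Gained H2A.Zac regions rose from 0.907% at 5 kb upstream to 4.66% at 150 bp downstream, and lost ones from 1.20% to 2.67%. Around protein-coding TSSs, the median centres of lost and gained H2A.Zac regions were -342 bp and 210.2 bp from the TSS, and 37.5% of lost and 62.0% of gained centres lay downstream. At lncRNA TSSs the median centres were -11 bp for lost and 60.5 bp for gained regions, and 49.4% and 53.3% of centres lay downstream, so that the medians were closer together. These positions are given without a test, since a region can lie in the windows of several genes. Taking regions that overlap a window centred on the TSS also favors median centres near it.

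**Figure D3:**
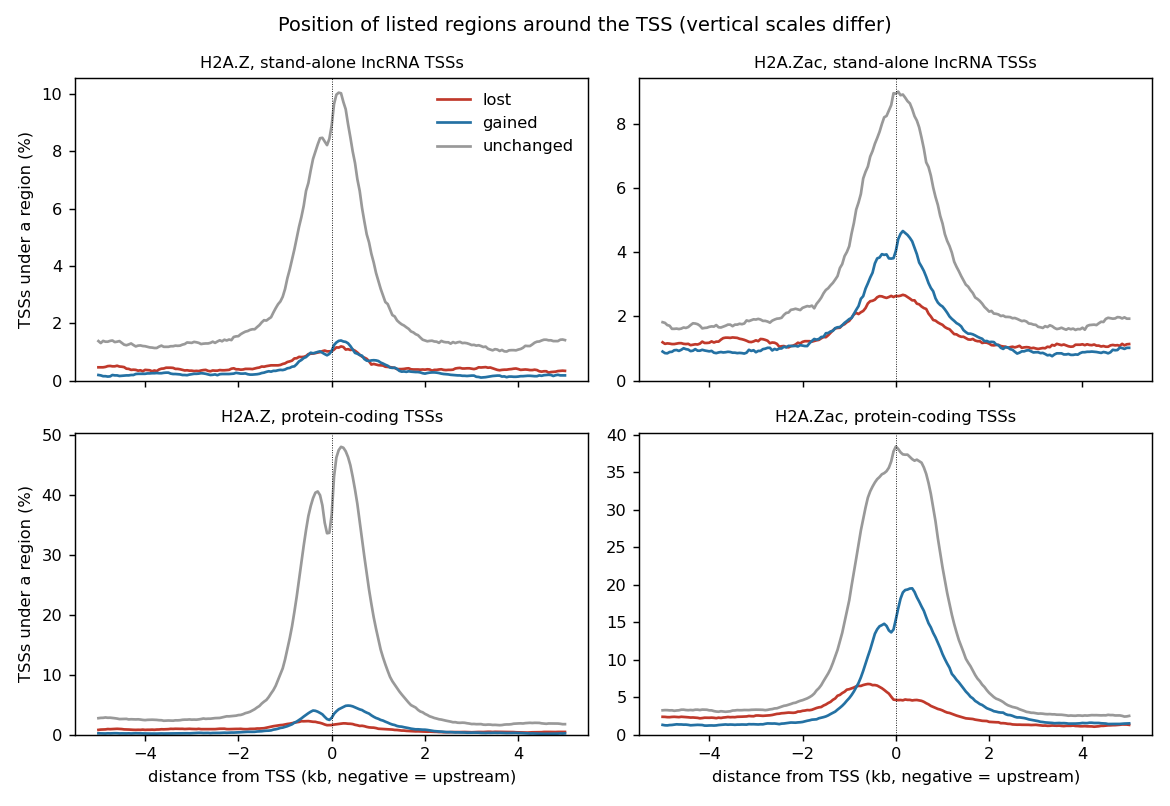
Share of TSSs covered by a lost, gained or unchanged region (y axis, %, scales differ between panels) by distance from the TSS (x axis, kb, negative upstream), for H2A.Z (left) and H2A.Zac (right) at stand-alone lncRNA TSSs (top) and protein-coding TSSs (bottom). Gained H2A.Zac peaks at 4.66% at lncRNA TSSs and at 19.5% at protein-coding TSSs, and the lost line at protein-coding TSSs has its peak upstream.

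Base composition went with whether a lncRNA promoter carried a mark. The share of TSSs with an H2A.Zac region rose from 5.41% where the GC content of the 2-kb window was under 40%, through 16.2% and 34.0%, to 49.1% where it was 60% and over, and the H2A.Z shares rose from 3.69% to 44.6%. Protein-coding TSSs had a higher share in each of the 4 GC classes, with differences of lncRNA minus protein-coding from -37.1 to -7.27 points for H2A.Zac. The median GC content was 45.0% at lncRNA and 55.1% at protein-coding TSSs, and it can also differ within these broad classes. Observed over expected CpG had a median of 0.466 at lncRNA TSSs with gained H2A.Zac, 0.360 with lost H2A.Zac and 0.222 with none, against 0.613 over all protein-coding TSSs.

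Direction within GC classes differed from protein-coding TSSs mainly in the middle of the range. At 40 to 50% GC, 55.8% of changed H2A.Zac regions were gained against 72.1% (-16.3 points, -20.3 to -12.4), and at 50 to 60% GC, 56.0% were gained against 70.5% (-14.5 points, -17.9 to -11.2). At 60% and over the difference was -8.70 points (-14.0 to -3.49) for H2A.Zac, and -6.27 points for H2A.Z with an interval that included 0 (-15.1 to 2.52). Both calls depended on the setting. For H2A.Zac the interval included 0 in 2 of 14 alternatives, distances over 20 kb (-5.11 points) and ratios of at least 10 (-2.37). For H2A.Z it excluded 0 in 4 of 14, such as ratios of at least 5 (-17.1 points, -27.5 to -5.48). Under 40% GC the gained shares were 68.6% against 67.8% for H2A.Zac and 75.4% against 64.6% for H2A.Z, with intervals of the difference from -9.26 to 11.004 and from -4.95 to 25.8 points. GC-poor lncRNA promoters were thus rarely marked, and their changed regions were mostly gained. Within the lncRNA set, the gained share at 60% GC and over differed from that under 40% by -14.6 points for H2A.Zac (-22.8 to -5.80) and by -24.3 points for H2A.Z (-36.5 to -9.89).

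Distance from protein-coding genes separated the lncRNA promoters further. At 5 to 20 kb from the nearest protein-coding TSS, 303 of 616 changed H2A.Zac regions were gained (49.2%), at 20 to 100 kb 617 of 1068 (57.8%) and beyond 100 kb 397 of 654 (60.7%). The farthest class exceeded the nearest by 11.5 points (6.04 to 16.9) for H2A.Zac and by 15.5 points (6.72 to 23.9) for H2A.Z, where the shares were 46.8%, 46% and 62.3%. With ratios of at least 10, the H2A.Z difference was 40.4 points (11.3 to 60.9). The share of TSSs with an H2A.Zac region fell in the opposite order, from 24.5% through 22.1% to 14.1%. The gained share of changed H2A.Zac regions at 5 to 20 kb (45.3 to 53.1) lay far under that of the lncRNA TSSs within 5 kb (74.5 to 77.8).

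**Figure D4:**
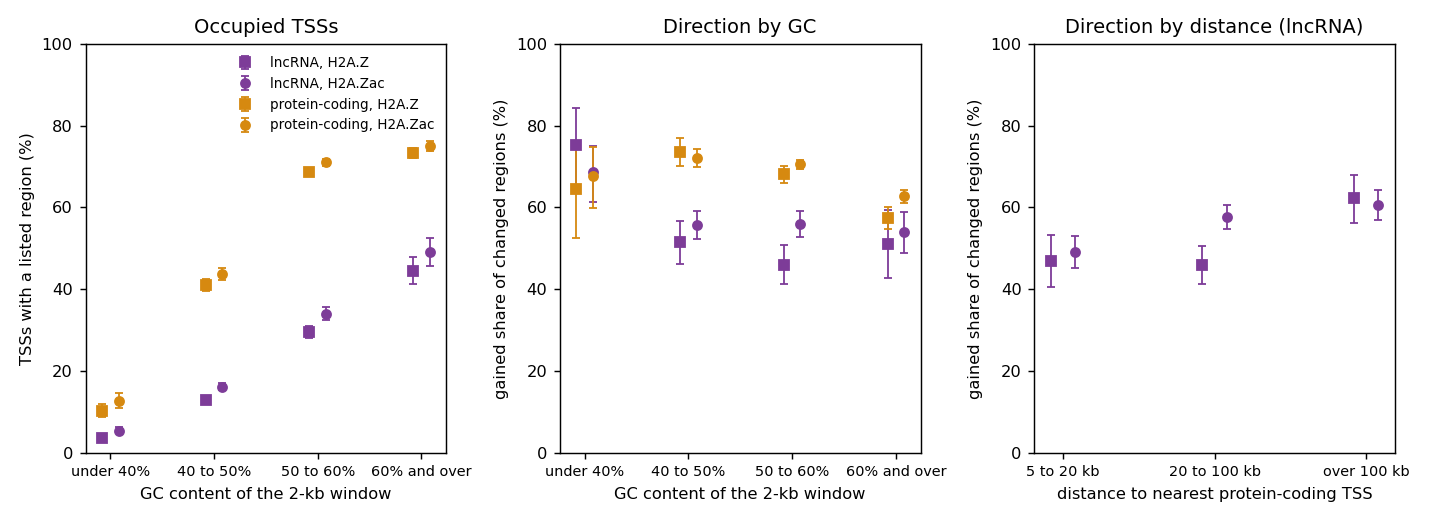
Share of TSSs with a listed region (left) and gained share of changed regions (middle) by GC content of the 2-kb window, and gained share of changed lncRNA regions by distance to the nearest protein-coding TSS (right), all in %, with squares for H2A.Z, circles for H2A.Zac and Wilson 95% intervals. lncRNA points (purple) lie under protein-coding points (orange) in the left panel in all classes, and in the right panel they are highest beyond 100 kb.

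Fewer lncRNA TSSs inside protein-coding gene bodies carried H2A.Zac. An H2A.Zac region was listed at 21.9% of the 9531 lncRNA TSSs outside protein-coding gene bodies, 16.3% of the 3675 inside a gene body on the other strand and 10.8% of the 1342 inside a gene body on the same strand. The gained shares of these classes were 54.98%, 61.6% and 54.6% of changed H2A.Zac regions. lncRNA genes with 1 exon had 65.9% of changed H2A.Zac regions gained, 10.7 points (5.26 to 15.9) more than those with more than 1 exon, and for H2A.Z the difference of 6.79 points had an interval that included 0 (-2.67 to 15.9).

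A total of 7 short motifs were counted on both strands in the 300 bases of each promoter. GGGCGG, the core of the GC box that SP and KLF factors bind, was in 27.3% of all 62700 annotated genes, in 14.5% of stand-alone lncRNA promoters and in 52.4% of protein-coding ones. It was in 40.1% of lncRNA promoters with gained H2A.Zac, 27.9% with lost and 9.40% with none. CCGGAAG, an ETS-type motif, was in 6.04% of all genes, 10.8% of gained, 6.94% of lost and 1.91% of unlisted lncRNA promoters. Protein-coding promoters had the same order for both, with CCGGAAG in 21.6% of gained and 8.91% of lost ones and GGGCGG in 66.1% and 61.7%. The difference of gained minus lost was 12.3 points for GGGCGG (8.05 to 16.4) and 3.81 points for CCGGAAG (1.27 to 6.28) at lncRNA promoters, and 4.43 points (2.201 to 6.67) and 12.7 points (11.1 to 14.2) at protein-coding ones. CACGTG, the E-box that MYC and related factors bind, went the other way, in 5.54% of all genes, 6.99% of gained and 9.45% of lost lncRNA promoters (-2.46 points, -5.01 to -0.03), and in 8.71% of gained and 11.5% of lost protein-coding ones. For the other 4 motifs the interval at lncRNA promoters included 0. AGATAA, the core of GATA sites, was in 13.9% of all genes, 11.7% of gained, 10.8% of lost and 17.4% of unlisted lncRNA promoters. TGACTCA, an AP-1 motif, was in 4.67% of all genes, 6.54% of all stand-alone lncRNA promoters, 8.48% of gained and 6.46% of lost ones (2.02 points, -0.37 to 4.31). TATAAA was in 11.5% of gained and 10.9% of lost lncRNA promoters and in 17.1% of all genes, and CCAAT was in 31.6%, 33.3% and 36.5% of these sets. GGGCGG contains a CpG, as do CCGGAAG and also CACGTG.

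The direction at the nearest protein-coding TSS was set beside that at the lncRNA TSS. Of 1980 lncRNA TSSs with H2A.Zac changed in 1 direction, the nearest protein-coding TSS had no H2A.Zac region in 795 cases (40.2%, against 45.2% over all members), an unchanged region alone in 269 and a change in 1 direction in 819. The directions were the same in 479 of those 819 (58.5%, 55.1 to 61.8). By distance the shares were 64.9% at 5 to 20 kb, 56.9% at 20 to 100 kb and 55.2% beyond 100 kb. Gained lncRNA TSSs had a gained neighbor in 301 of 427 cases (70.5%), and lost lncRNA TSSs had a lost neighbor in 178 cases (45.4% of those with a changed neighbor). Of all nearest protein-coding TSSs with a change in 1 direction, whatever the lncRNA did, 67.6% were gained (65.8 to 69.4) and 32.4% were lost (30.6 to 34.2). The interval for a gained neighbor of a gained lncRNA TSS (66.0 to 74.6) overlapped that base, and the interval for a lost neighbor of a lost lncRNA TSS (40.5 to 50.4) lay over its own. The base counted each of 6877 nearest protein-coding TSSs once, while 1 of them can be the neighbor of several lncRNA TSSs. The intervals treat the pairs as independent and can be too narrow, so that no conclusion is drawn from this comparison.

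The strongest losses of both marks were led by ITGB2-AS1 (chr21:44921051-44929680, + strand), antisense to the gene of the leukocyte integrin beta chain ITGB2 and 10.9 kb from its TSS, with a log10 likelihood ratio of 20.6 for an H2A.Z region from -789 to 488 bp and 70.3 for an H2A.Zac region from -1089 to 535 bp of its TSS. ENSG00000253376 and LINC01602, overlapping lncRNA genes on opposite strands of 1 chromosome 8 locus with FAM110B as the nearest protein-coding gene, had ratios of 18.4 and 12.6 for H2A.Z and 58.5 and 54.3 for H2A.Zac. ENSG00000285354 (chr2:16294445-16302290, − strand), 361.7 kb from MYCN, had ratios of 11.6 and 53.7 in regions that ended at -261 and -302 bp from its TSS. ENSG00000225457 (chr7:113100663-113146330, + strand) had 2 lost H2A.Z regions of 14.4 and 9.99 under an H2A.Zac region of 53.0. LINC00989 (chr4:79491802-79623479, + strand), 83.6 kb from the glycerol kinase gene GK2, had ratios of 12.9 and 47.6. In all 6, the H2A.Z and H2A.Zac regions overlapped.

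The strongest gains of both marks were led by ENSG00000234710 (chr7:9621764-9769518, + strand), which lies 1188.2 kb from the nearest protein-coding TSS, that of the neurexophilin gene NXPH1. Its H2A.Z region from -1384 to 712 bp had a ratio of 31.9, the highest of all gained H2A.Z regions at these promoters, and its H2A.Zac region from -1414 to 722 bp had 99.7. ENSG00000233970 (chr2:692083-693235, − strand), 15.8 kb from TMEM18, had gained H2A.Z regions of 7.81 and 13.1 under an H2A.Zac region of 58.7. ENSG00000226965 (chr7:110108031-110534757, − strand) had ratios of 12.3 and 58.0, and ENSG00000250244 (chr5:133256492-133275977, + strand), in a gene body on the other strand, had 23.1 and 48.9 in regions of under 1 kb over its TSS. ENSG00000287232 (chr3:126213204-126247714, + strand) had 46.02 for H2A.Zac over 2 gained H2A.Z regions of 11.5 and 9.79 with an unchanged stretch of 1.39 between them. ENSG00000291062 (chr15:84080168-84165291, + strand) had 10.4 and 54.6, but its neighbor GOLGA6L4 belongs to a family of near-identical copies, so that reads there may be shared between loci.

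**Figure D5:**
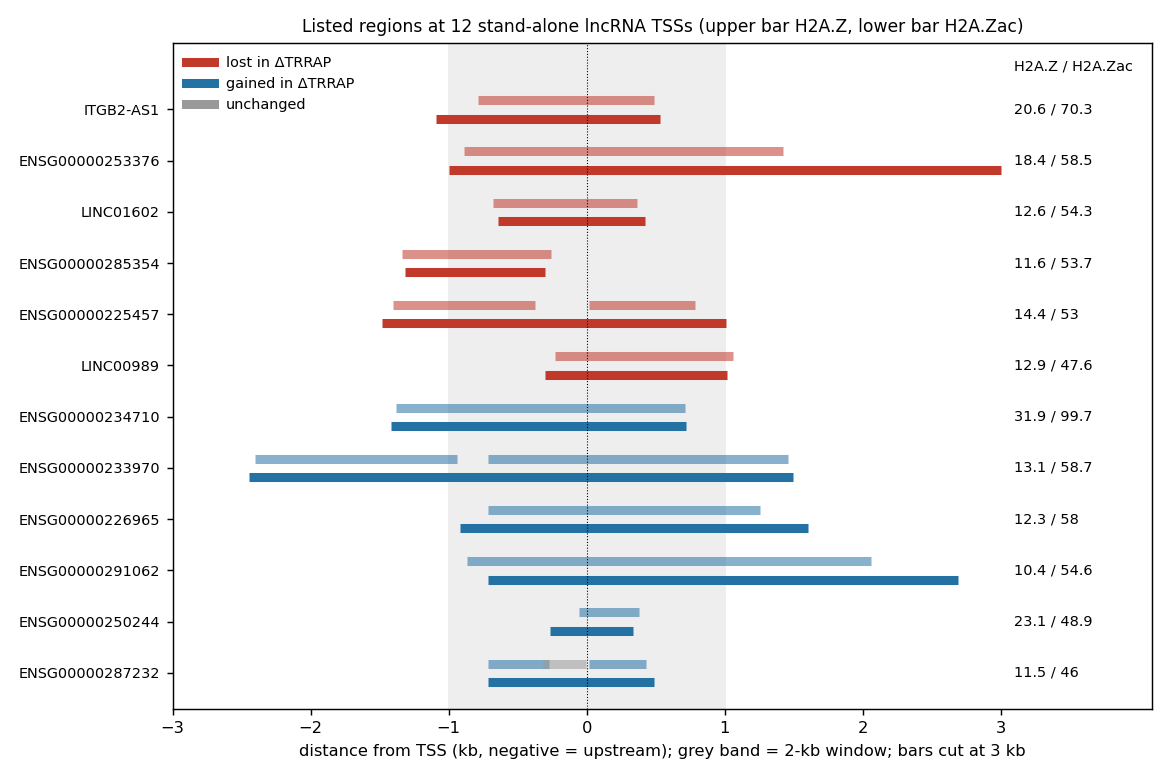
Listed regions around the TSS (x axis, kb, negative upstream) of the 6 stand-alone lncRNA genes with the strongest H2A.Zac loss and the 6 with the strongest gain among those with H2A.Z changed the same way, with the highest log10 likelihood ratio of each mark at the right. The H2A.Zac bars span the TSS in 11 of 12 genes, and that of ENSG00000285354 ends at -302 bp.

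H2A.Zac also changed strongly at promoters with no listed H2A.Z region. ENSG00000225806 (chr20:58863528-58888809, − strand), antisense within a protein-coding gene body, had the highest ratio of any lost region at these promoters, 120.2. Its region ran from -2205 to 508 bp of the TSS, which lay 49.1 kb from the TSS of GNAS, the stimulatory G protein gene. That distance was measured from the start of the GNAS gene record. Other GNAS promoters were not considered, so that the region cannot be assigned to the lncRNA promoter alone. ENSG00000225806 lies in the lost-leaning stretch of chromosome 20 described below, and ENSG00000290054 in that at the end of chromosome 3. ENSG00000290054 (54.7) and ENSG00000266088 (48.6) followed among the losses, with regions that ended at -931 and -92 bp from the TSS. Among the gains, ENSG00000291024 had a ratio of 66.0 in a region that began only 976 bp after its TSS, ENSG00000278254 had 63.9 and 53.3, and ENSG00000248762 had 49.7 in a region over its TSS. ENSG00000278254 and ENSG00000234710 share NXPH1 as the nearest protein-coding gene.

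Of the 112 host genes of small nucleolar RNAs and microRNAs, 88 were stand-alone and 46 of these had a region. H2A.Zac was gained at 17, lost at 12, lost and gained at 3, unchanged at 11 and not listed at 45. Of the 43 with an H2A.Zac region, 39.5% were gained and 27.9% lost, close to the 40.5% and 29.6% over all members with one. The share with an H2A.Zac region was 48.9% (38.7 to 59.1) against 19.4% over all members. MIR17HG, the host of an oncogenic microRNA cluster, had a gained H2A.Z region of 12.2 from -222 to 2495 bp and a gained H2A.Zac region of 5.04 over its TSS. MIR223HG, the host of a microRNA of myeloid cells, had a gained H2A.Z region of 25.2 over its TSS and no H2A.Zac region, and its promoter above holds AGATAA on the strand opposite to the printed one. SNHG8 had gained H2A.Z of 7.05 and H2A.Zac of 6.95 just downstream of the TSS, whereas SNHG11 and SNHG17, which lie on chromosome 20, had lost H2A.Zac regions of 5.82 and 6.47. The strongest H2A.Zac losses of this group were at MIR493HG (36.9), MIR1915HG (25.5, with unchanged H2A.Z) and MIR202HG (24.5), and the strongest gain was at MIR548A1HG (21.8). The MIR493HG region lay from 833 to 2346 bp, downstream of the TSS, while the other regions just named covered theirs.

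All 7 stand-alone genes of a list of 10 abundant or structural lncRNAs had a region, and H2A.Zac was gained at 6, lost at 0 and unchanged at 1. A gained region in the window sufficed for this count. The H2A.Zac region over the TSS itself was unchanged at NEAT1, FTX and JPX and gained at CYTOR and KCNQ1OT1, and MALAT1 had none there. Over all members with an H2A.Zac region, 1144 of 2828 (40.5%) had gained H2A.Zac. MALAT1, a nuclear speckle RNA, had gained H2A.Zac regions of 11.9 from -1286 to -142 bp and of 11.7 from 69 to 1263 bp, and no H2A.Z region. NEAT1, the scaffold of paraspeckles, had a gained H2A.Zac region of 6.83 upstream of an unchanged one. KCNQ1OT1, an imprinted antisense RNA, had gained H2A.Z of 4.57 and 4.04 and gained H2A.Zac of 4.68, 5.83 and 5.36. CYTOR, JPX and FTX had gained H2A.Zac of at most 6.49, 8.46 and 5.63, and NORAD, which sequesters Pumilio proteins, had unchanged regions of both marks. The median ratio over all gained H2A.Zac regions at stand-alone lncRNA promoters was 6.91.

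Over all members, 21.1% had a region of either mark. Of 6 stand-alone genes on a list of imprinted lncRNAs, KCNQ1OT1 was the 1 with a region. Of 8 lncRNAs of the MYC neighborhood, 6 were found by symbol in the annotation and 4 were stand-alone. Of these 4, PVT1 and CCDC26 had unchanged H2A.Zac while 2 had no region. Of 11 lncRNAs of blood lineages, 8 were stand-alone and 6 had a region. Among those not yet described, UCA1 had H2A.Zac lost (6.25) upstream and gained (6.53) downstream of its TSS with a gained H2A.Z region of 4.22, MIR4435-2HG had lost H2A.Z (3.63) and H2A.Zac (5.76), and EGOT had unchanged H2A.Zac alone.

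In 5 long stretches, which were chosen with earlier results of these data known, H2A.Z changes at lncRNA promoters ran mostly 1 way. The counts there describe these stretches and are not a test, since the choice favors a lean at both kinds of promoter. On chromosome 20 from 30 Mb on, 1 of 20 changed H2A.Z regions at lncRNA promoters was gained, on chromosome 12 between 115 and 130 Mb 0 of 16, and on the end of chromosome 3 from 190 Mb on 3 of 14. On chromosome 5 between 145 and 165 Mb, 5 of 5 were gained. Protein-coding TSSs in these stretches had 1 of 107, 1 of 44, 0 of 10 and 70 of 71 changed H2A.Z regions gained, so that H2A.Z went mostly the same way at both kinds of promoter there. For H2A.Zac, 14 of 36 changed regions at lncRNA promoters of the chromosome 20 stretch were gained (38.9%, 24.8 to 55.1) against 21 of 166 at protein-coding TSSs (12.7%, 8.43 to 18.6), and these intervals did not overlap. The H2A.Zac counts at lncRNA and protein-coding promoters were 2 of 14 and 7 of 66 on chromosome 12, 3 of 25 and 5 of 31 on chromosome 3, and 6 of 6 and 51 of 57 on chromosome 5. On chromosome 19 from 40 Mb on, 2 of 12 changed H2A.Z regions at lncRNA promoters were gained against 10 of 137 at protein-coding TSSs, and for H2A.Zac 8 of 29 (27.6%, 14.7 to 45.7) against 121 of 297 (40.7%, 35.3 to 46.4). Without these 5 stretches, the difference between lncRNA and protein-coding promoters kept its sign, at -16.4 points for H2A.Z and -12.2 points for H2A.Zac. Why direction followed position was not tested.

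At the limit of the definition, PRRT3-AS1 (5.004 kb), ENSG00000269506 (5.008 kb) and ENSG00000290011 (5.008 kb) were just members, and of these ENSG00000290011 had unchanged H2A.Z and lost H2A.Zac while the others had no region. ENSG00000261292 (4.998 kb), LILRB1-AS1 (4.997 kb) and ENSG00000230033 (4.991 kb) fell just short and had no region. As a check of the cell type, the erythroid genes TAL1, KLF1, LMO2 and GFI1B had H2A.Zac regions at their TSSs, and the liver gene ALB and the muscle gene MYOD1 had no region of either mark. Against the label, the annotated TSS of the erythroid factor gene GATA1 had no region, and the T cell gene CD3E and the leukocyte gene PTPRC had H2A.Zac regions. Since a gene was given 1 TSS, the 5′ end of its gene record, a promoter used elsewhere in the gene was not seen.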

How the data were processed

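Per the labels and the methods of the study, the authors aligned reads to hg38 with Bowtie2 (2.4.5), called peaks with MACS2 (2.2.7.1), merged the replicates and compared WT with ΔTRRAP by MACS2 bdgdiff, with a filter that asked for 25% of a region's length inside reproducible peaks (IDR threshold 0.05). The deposited score of each region is the authors' log10 likelihood ratio. It is neither a count nor a fold change, and its merging, scaling and filters were not repeated here. TSSs were the 5′ ends of GENCODE release 44 gene records, and a region counted where at least 1 bp lay in the 2-kb window. A total of 793 regions lay in more than 1 lncRNA window and were counted once, and 1 region lay in both a lncRNA and a protein-coding window. Shares have Wilson and differences have Newcombe 95% intervals (Python 3.11.15, numpy 2.4.6, pandas 2.3.3, pysam 0.24.0). Window overlaps were checked against bedtools 2.31.1. The Newcombe intervals were checked on simulated independent counts, which lack the clustering of real regions and cannot show that the intervals hold for it. The members, gene lists and chromosome stretches were chosen with earlier results of these data known. Named genes were, per direction, the 6 highest H2A.Zac ratios with H2A.Z changed the same way, the 3 highest with no H2A.Z region, list members with a region, and the 3 TSSs on either side of the 5-kb limit. Alternatives are given under the processing heading.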

Additional observations from a re-analysis of the deposited data

How the results depend on the processing

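No paired analysis was possible because the lists come from merged replicates and hold no value per replicate, so that no replicate could be left out either. Between lncRNA and protein-coding TSSs, the differences in unchanged share, lost share and gained share of changed regions kept their sign in all 16 alternatives for both marks, as did the last of these in each GC class from 40% up in all 14 run by class. Their size moved more than 1.5 times with ratios of at least 10, where the H2A.Z lost-share difference went from 6.59 to 1.48 points and the unchanged-share differences from -6.53 to -2.09 for H2A.Z and from -5.22 to -10.7 for H2A.Zac. In that setting the difference in gained share of changed regions went from -16.3 to -9.30 at 40 to 50% GC and from -14.5 to -6.61 at 50 to 60% GC for H2A.Zac, and from -22.2 to -34.2 at 40 to 50% GC for H2A.Z, and the gained share of H2A.Z beyond 100 kb exceeded that at 5 to 20 kb by 40.4 in place of 15.5 points. The H2A.Zac unchanged-share difference was also -8.13 with regions of at least 500 bp and -8.43 in base pairs. With transcript TSSs the H2A.Zac gained-share difference was -3.75 points. The gained-share difference did not keep its sign. For H2A.Z it turned from -0.05 to 0.48 points with distances over 20 kb, 1.962 with windows of 500 bp, 1.05 and 0.61 with ratios of at least 5 and 10, 2.04 with regions of at least 500 bp and 1.79 in base pairs. For H2A.Zac it turned from -2.07 to 0.11 and 4.82 points with ratios of at least 5 and 10, 0.58 with regions of at least 500 bp and 0.74 in base pairs, and its interval came to include 0 with distances over 20 kb (-0.93). Under 40% GC the H2A.Zac difference of 0.82 points in the gained share of changed regions turned to -0.93 with ratios of at least 5 and -0.98 with regions within 1 kb merged. It was 8.22 with windows of 500 bp. The H2A.Z difference of 10.8 points in that class ranged from 4.57 in base pairs to 28.6 with ratios of at least 10. At 60% GC and over, that of H2A.Z ranged from -18.3 with ratios of at least 10 to -3.07 with distances over 20 kb. For the gained share of changed H2A.Zac regions the interval came to include 0 with ratios of at least 10 (-1.09 points), and at 60% GC and over also with distances over 20 kb (-5.11) and ratios of at least 10 (-2.37). For H2A.Z at 60% GC and over the interval came to exclude 0 with ratios of at least 5 (-17.1), regions of at least 500 bp (-15.3), base pairs (-9.04) and without the 5 stretches (-10.5). The causes were not tested.

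Shares of the lncRNA set left their own interval as follows. The gained share of changed H2A.Z regions was 46.8% with transcript TSSs, 45.3% and 39.3% with ratios of at least 5 and 10, and 43.6% with regions of at least 500 bp. That of H2A.Zac was 53.0% with transcript TSSs, 58.9% with distances over 20 kb, 61.5% with windows of 500 bp, 46.5% with ratios of at least 10 and 54.2% with no other TSS within 1 kb. The unchanged H2A.Z share was 75.8% with windows of 500 bp, 79.2% and 96.4% with ratios of at least 5 and 10, 78.8% with regions of at least 500 bp and 78.1% in base pairs, and that of H2A.Zac was 52.5%, 56.1%, 76.8%, 53.0% and 53.6% in the same order and 48.4% with regions within 1 kb merged. The ratio limits were set on changed regions alone, which raises the unchanged share. The share of TSSs with an H2A.Z and an H2A.Zac region was 21.6% and 25.2% with transcript TSSs, 15.2% and 18.2% with distances over 20 kb, 13.8% and 16.9% with windows of 500 bp, 18.5% and 22.2% with windows of 4 kb, and 13.5% and 16.7% with no other TSS within 1 kb.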
